A study of Caenorhabditis elegans with 6 samples.

Results

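The col genes of the nematode Caenorhabditis elegans encode collagens, most of which are laid down in the cuticle. They were taken here as all genes whose symbol is col- followed by a number, found through the sequence name of each array probe in the RefSeq gene table of WBcel235. The table lists 159 such genes, of which 138 were on the array, on 151 probes, among 18889 genes in all. Transcript levels of 88 of the 138 could be compared between treated and control worms, out of 7989 genes tested on the array. A gene was compared where the image software had left its spot unmarked on at least 2 arrays of each dye orientation; the other 50 members are described by their signal alone.

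Worms of the wild-type strain N2 were raised from eggs for 72 h at 16 °C on agar with E. coli OP50 as food, and were collected whole at the L3 and L4 larval stages. The treated worms received a low dose mixture (LDM) of the organophosphorus insecticides chlorpyrifos (CPF) and diazinon (DZN), 0.5 of CPF and 1 of DZN, given in mg/l in the study's methods and in mg/ml in the sample labels. Control worms received the solvent acetone, which the treated worms received as well. Each sample pooled the worms of several dishes, and 6 arrays each compared an LDM sample with a control sample. LDM was labelled with Cy5 and control with Cy3 on 3 arrays, and the dyes were exchanged on the other 3. An array is named by the dye of its LDM sample and its replicate number. In whole worms, fewer epidermal cells and less RNA per cell cannot be told apart.

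The cuticle is the collagen-rich outer coat of the worm. It is secreted by the epidermis and replaced at every moult, when many collagen genes are switched on in successive waves within the moulting cycle and others are used at only a single stage. Collagen chains are hydroxylated and folded in the endoplasmic reticulum, trimmed by proteases, assembled into trimers, secreted and cross-linked. Their transcript levels are known to change with age within a larval stage.

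On each array 37.6 to 61.4% of gene spots were left unmarked by the image software, the lower values on the 3 with LDM in Cy5, and the ratios of LDM over control were centred near 0 (medians of -0.04 to 0.00 on the log2 scale over the genes tested). The arrays were not alike. Over all genes tested the SD of the log2 ratios ran from 0.342 on LDM in Cy3 replicate 1 to 0.830 on LDM in Cy5 replicate 3, and replicates 2 and 3 with LDM in Cy5 were negatively correlated (Pearson's r of -0.37 across 7191 genes, which are not independent replicates, and -0.25 over all 22490 gene probes in the authors' ratios). The labels state the dyes, so the direction was kept. The scanner headers give the control samples of LDM in Cy5 replicate 3 and LDM in Cy3 replicate 1 the same number, and the image of LDM in Cy3 replicate 1 was analysed on another date and with another spot-finding method than the other 5, so that this array and that analysis cannot be told apart.

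Most col genes gave signal in control worms at this stage. The control channel exceeded its local background by more than 2 background SD on 6 of 6 arrays for 100 of the 138 members, on 1 to 5 arrays for 34 and on 0 for 4, while 53.4% of all gene spots on the array did so on 6 of 6. Signal was low for col-2, known as a collagen of the dauer larva, an alternative resting stage: its control intensity was 276, 203 and 228 where LDM was in Cy5 and 231, 561 and 210 where it was in Cy3, over local backgrounds with medians of 156 to 159. For col-10, control intensities ran from 170 to 291. col-99, which encodes a transmembrane collagen known from the nervous system, ran from 159 to 210 and was above background on 1 of 6 arrays. col-2 had 1 unmarked spot, col-10 and col-99 had 0, and none of them was tested.

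The spots of col-154 differed between arrays. Its control intensity was 57197, 34533 and 58908 where LDM was in Cy5 and 59453 on LDM in Cy3 replicate 3, but 179 and 178 on LDM in Cy3 replicates 1 and 2. The LDM channel followed, with 39077, 52074, 36515 and 34482 on the first 4 of these spots and 169 on each of the others. The signal on LDM in Cy3 replicates 1 and 2 was thus close to background in both channels, whichever worms the RNA came from, and the gene was not tested. Its ratio was below 0 on all 4 arrays where it was unmarked (-0.84, -0.25, -0.62 and -0.16), but on 3 arrays its spot had saturated pixels, up to 50% of them, so these ratios are not exact.

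The first question was whether the mixture changed the transcript levels of the collagen family. With limma, a linear model with moderated variances, 0 col genes were higher and 0 were lower at a Benjamini-Hochberg adjusted p under 0.05, where 0.313% and 0.0626% of all genes tested were (0.376% in either direction). At an unadjusted p under 0.05, 1 of 88 was higher and 11 were lower (12.5%), where 4.41% and 4.92% of all genes were, so that 13.6% of the members stood against 9.33% of all genes in either direction. The count of 11 lower was 6 of 85 without LDM in Cy5 replicate 1, where 2.72% of all genes were lower. It was 4 without LDM in Cy3 replicate 1 (3.97% of all genes) and 4 without LDM in Cy3 replicate 2 (2.11%). Without LDM in Cy3 replicate 3 it was 16 of 86, where 3.18% of all genes were lower. The count of 1 higher became 3 or 4 when LDM in Cy5 replicate 1 or 3 was dropped, and 2 or 0 when LDM in Cy3 replicate 1 or 2 was. The rank product, the study's own test, takes the geometric mean of a probe's ranks over the arrays. A few extreme arrays can thus carry a call. It called 1 member higher, col-37, and 0 lower at a percentage of false positives under 0.05. Of all genes it called 1.34% higher and 0.488% lower. The ratios leaned downwards: 61 of 88 members (69.3%) had a log2 ratio of LDM over control below 0, where 55.1% of all genes did, and the median was -0.14 for the family and -0.03 for all genes. The family median was -0.32, 0.02 and -0.25 on LDM in Cy5 replicates 1 to 3 and -0.15, -0.03 and 0.02 on LDM in Cy3 replicates 1 to 3, below 0 on 4 of 6 arrays.

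**Figure D1:**
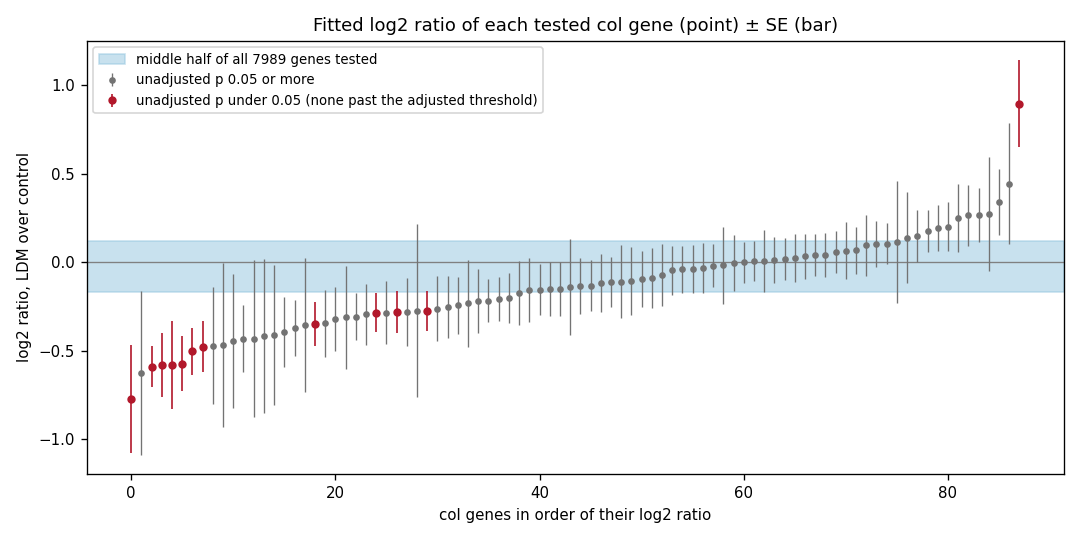
Log2 ratio of LDM over control (vertical axis) for each of the 88 tested col genes in rising order (horizontal axis), as fitted over 6 arrays, with bars of 1 standard error; the blue band holds the middle 50% of all 7989 genes tested. The 12 members at an unadjusted p under 0.05 are red: 11 lie below 0 and 1, col-37, lies above all others at 0.90.

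That lean held with other background steps and most normalisations, but not with median centring. The share of members below 0 was 69.3% with no background correction, 63.6% with print-tip loess and 67% with the authors' ratios. Over all genes it was 54.9%, 54.3% and 59.5% in the same order. With saturated spots left out it was 75% of members and 55% of all genes. Median centring only centred each array on its median, without the loess curve that removes a trend with intensity. With it, 55.7% of the members lay below 0 against 55.8% of all genes, and the family median was -0.07. At an unadjusted p under 0.05, 8 members were higher in place of 1, where 11.6% of all genes passed in either direction. Without LDM in Cy3 replicate 1, 60.2% of the members and 54.8% of all genes lay below 0. With weights for the arrays estimated from the spread of all genes, 5 members were higher and 12 lower at an adjusted p under 0.05 (17 of 88, 19.3%), where 14% of all genes passed; these weights were 3.03, 0.274 and 0.222 for LDM in Cy5 replicates 1 to 3 and 1.67, 3.87 and 0.84 for LDM in Cy3 replicates 1 to 3.

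Of the members measured on all 6 arrays, 3 of 79 (3.8%) lay below control on every array, where 3.25% of all genes did: col-182, col-133 and col-45. None lay above on every array, where 2.43% of all genes did.

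col-182 (R09A8.4, chromosome X) had the smallest p among the members, and the gene table lists it as a pseudogene. Its log2 intensity in control was 12.65, 12.37 and 13.04 where LDM was in Cy5 and 12.67, 12.54 and 12.76 where it was in Cy3, and in LDM 11.81, 11.60, 12.04, 12.48, 12.11 and 12.45 in the same order. LDM was the lower channel on each array, more so with LDM in Cy5, although the ranges of the groups overlap. The log2 ratio was -0.59 ± 0.11 (standard error, n = 6 arrays), below 0 on 6 of 6 arrays, and did not pass (limma, adjusted p = 0.144). Leaving out an array moved the ratio between -0.62 and -0.56.

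col-133 (F52B11.4, chromosome IV) gave control log2 intensities of 15.55, 15.70, 15.65, 15.33, 15.28 and 15.48 and LDM intensities of 15.22, 15.24, 15.20, 15.15, 15.11 and 15.35. The distance between the channels was small but of the same sign throughout, with LDM between 15.11 and 15.35 and control between 15.28 and 15.70. Its log2 ratio was -0.29 ± 0.11 (SE, n = 6; adjusted p = 0.479), but -0.02 with median centring, and on 3 of 6 arrays some pixels of the spot were at the scanner's ceiling. For col-45 the ratios were -0.59, -0.27 and -0.22 with LDM in Cy5 and -0.22, -0.14 and -0.24 with LDM in Cy3. LDM in Cy5 replicate 1 gave the lowest of these and the other 5 lay close together (fitted ratio -0.28 ± 0.12, limma, adjusted p = 0.518).

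The other members at an unadjusted p under 0.05 with a ratio below 0 were col-104, col-110, col-120, col-149, col-157, col-172, col-175 and col-79. None passed after adjustment (adjusted p of 0.31 to 0.533). col-175 had ratios of -0.69, -0.41 and -1.09 with LDM in Cy5 and -0.85, -0.70 and 0.25 with LDM in Cy3. It was below control on 5 of 6 arrays, the exception being LDM in Cy3 replicate 3, as it was for col-104 (0.06), col-110 (0.14), col-120 (0.69) and col-79 (0.11). The lowest fitted ratio in the family, -0.78 ± 0.31 for col-172 (SE, n = 5), came mainly from LDM in Cy5 replicate 2, where it was -2.49, while its other 4 measured ratios lay between -0.35 and 0.09.

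**Figure D2:**
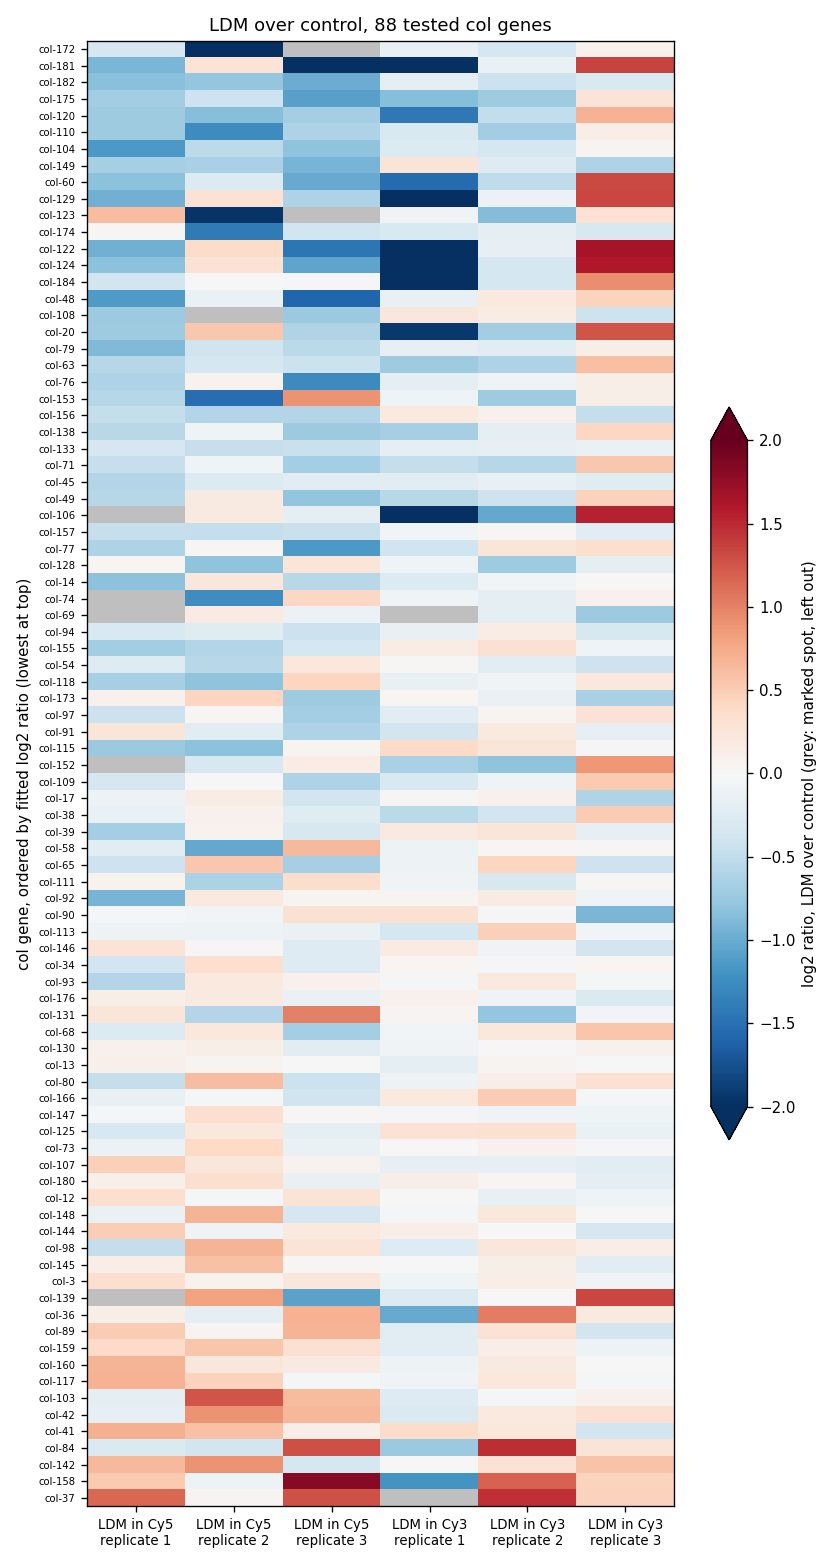
Log2 ratio of LDM over control of the 88 tested col genes (rows, lowest fitted ratio at the top) on the 6 arrays (columns); blue is below and red above control, colours stop at -2 and 2, and grey marks spots left out. A block of members is dark blue on LDM in Cy3 replicate 1 and red on LDM in Cy3 replicate 3, col-124 (-2.19 and 1.60) among them.

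The single called member, col-37 (ZK863.2, chromosome V), was higher in LDM on each of the 5 arrays where it was unmarked. Its log2 intensity in control was 13.10, 13.28 and 13.47 where LDM was in Cy5, then 10.37 and 12.87 on replicates 2 and 3 with LDM in Cy3, against 14.24, 13.34, 14.75, 11.83 and 13.33 in LDM. On LDM in Cy3 replicate 1 its intensity was 349 in control and 230 in LDM, and the spot was marked and left out. The control level thus differed by 3.10 on the log2 scale between arrays, more than the difference between treatments on any of them.

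The log2 ratios of col-37 were 1.15, 0.06, 1.28, 1.46 and 0.46, with a fitted ratio of 0.90 ± 0.25 (SE, n = 5). The rank product called it (percentage of false positives 0.0272) and limma did not (adjusted p = 0.347). The rank product no longer called it when LDM in Cy5 replicate 1 or any array with LDM in Cy3 was left out, nor with marked spots kept, where the fitted ratio was 0.64. The percentage was 0.0495 when the chance distribution was drawn only from probes measured on as many arrays.

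**Figure D3:**
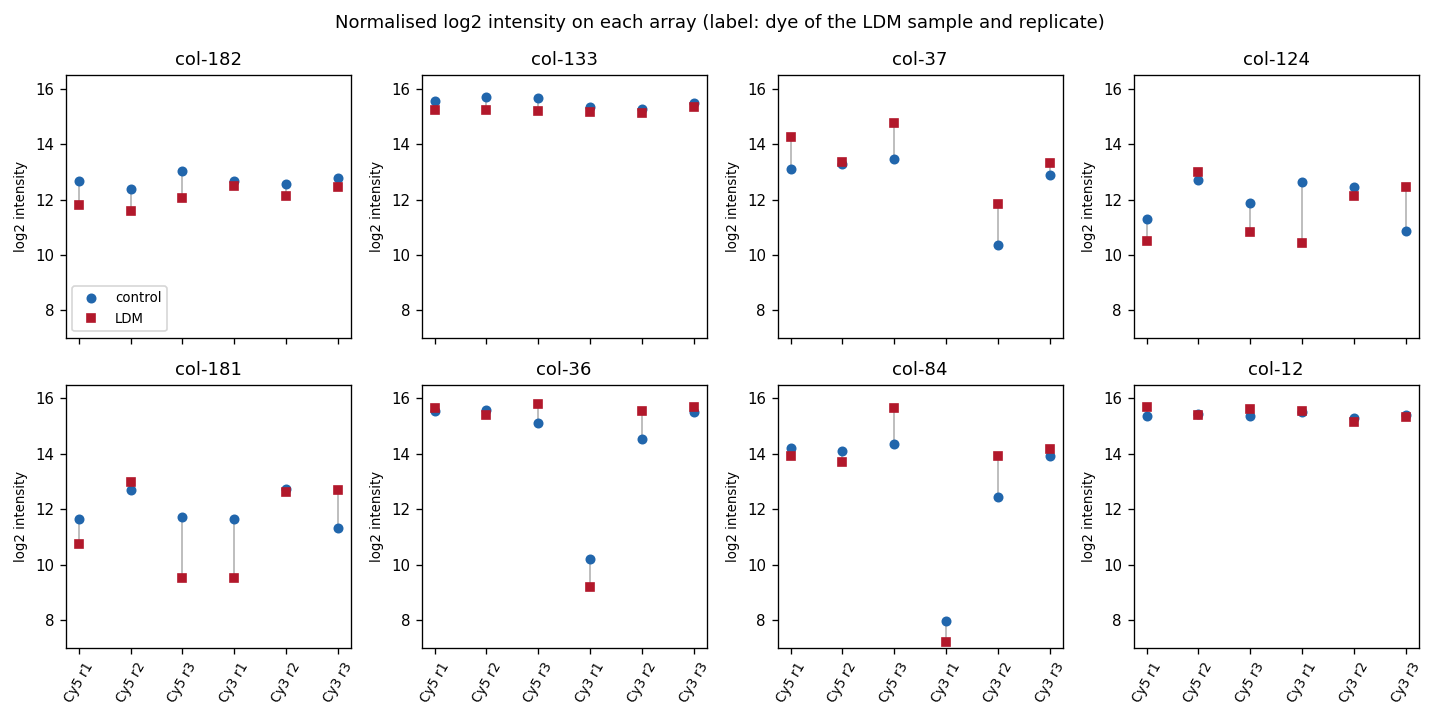
Normalised log2 intensity (vertical axis) in control (blue circles) and LDM (red squares) on each array (horizontal axis, dye of the LDM sample and replicate) for 8 col genes; grey lines join the channels of an array, and levels are not comparable between genes. The channels of col-12 nearly coincide on every array, those of col-182 keep their order, and col-36 and col-84 drop together in both channels on LDM in Cy3 replicate 1.

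The spread between arrays set the limit for most members. The SD of the log2 ratio over arrays had a median of 0.420 for the family and 0.417 for all genes, and it exceeded the size of the fitted ratio for 77 of 88 members. The ratio spanned more than 1 on the log2 scale between arrays for 52 members and more than 2 for 17. Fitted ratios were nevertheless small, within 0.25 of 0 for 49 members and beyond 0.5 for 8. For 43 members the mean ratio was below 0 with either dye, for 12 it was above 0 with either, and for 33 the sign differed between the orientations, although 0 of 88 passed for a dye effect (limma, adjusted p under 0.05), where 0.025% of all genes did.

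The steadiest members were col-13, col-130, col-133, col-147 and col-45, with SDs of the ratio from 0.0974 to 0.158. col-13 belongs with its neighbour col-12 on chromosome V to a collagen pair of closely similar sequence. The ratios of col-13 were 0.10, 0.05, 0.00, -0.18, 0.05 and 0.01, for a fitted ratio of 0.00 ± 0.11, and a further probe of the gene gave 0.22, 0.09, 0.06, -0.08, -0.09 and -0.08. col-12 had control log2 intensities of 15.35, 15.42, 15.36, 15.53, 15.30 and 15.42, with the smallest SD of the control level in the family (0.0788), and a fitted ratio of 0.06 ± 0.12. Treated and control worms overlapped fully for both genes. With median centring the ratio of col-12 was 0.34, and 5 of 6 arrays had saturated pixels in its spot.

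Saturation was common in this family. Of the tested members, 24 (27.3%) had pixels at the scanner's ceiling on at least 1 array, against 4.99% of all genes tested. The median SD of the ratio was 0.275 for these members and 0.465 for the other 64, and the median log2 ratio was 0.02 against -0.21. Whether the ceiling compressed these ratios was not tested; with all saturated spots left out, 72 members could be tested, with a median of -0.16. Among the tested members, the brightest control spots, those of col-155, col-157, col-94, col-133, col-125 and col-39, all had saturated pixels on some arrays, and their fitted ratios ran from -0.29 (col-133) to 0.02 (col-125).

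The widest spread belonged to col-181, col-106, col-129, col-122 and col-124, with SDs from 1.29 to 1.41, and these members shared a pattern. On LDM in Cy3 replicate 1 their log2 ratios were -2.15, -2.13, -2.72, -2.02 and -2.19 in that order. On LDM in Cy3 replicate 3 they were 1.35, 1.53, 1.34, 1.64 and 1.60. The same collagens were thus far below control on the former array and far above it on the latter. Their fitted ratios were -0.63, -0.27, -0.47, -0.43 and -0.42, with standard errors of 0.44 to 0.49.

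Over the whole family the log2 ratios of LDM in Cy3 replicates 1 and 3 ran opposite, with a Pearson's r of -0.82 across 86 members, against -0.08 across 7904 genes tested. These are correlations across genes, which share the same libraries and probes, and they are given as a description. Across the members without saturated pixels r was -0.81. Replicates 1 and 3 with LDM in Cy5 ran together (r = 0.61 over 81 members and 0.41 over all genes).

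**Figure D4:**
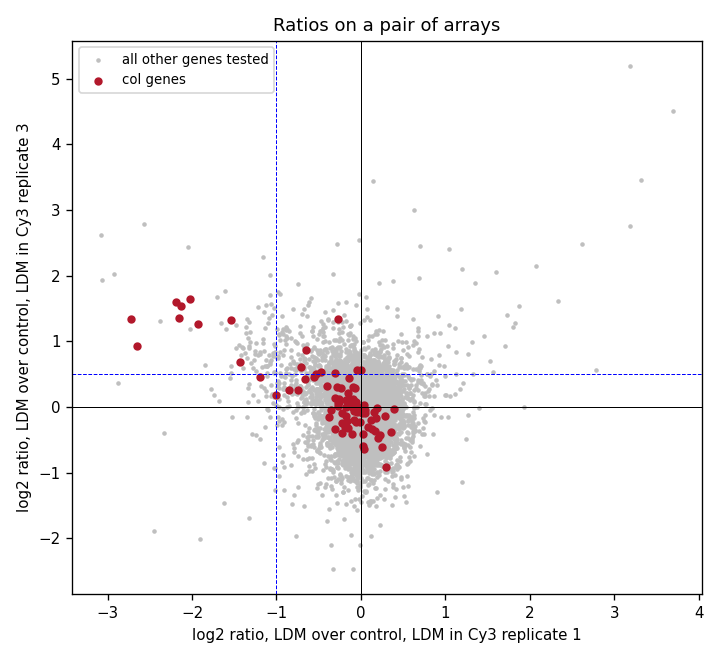
Log2 ratio of LDM over control on LDM in Cy3 replicate 1 (horizontal axis) and on LDM in Cy3 replicate 3 (vertical axis) for the col genes (red) and the other genes tested (grey); dashed lines mark -1 and 0.5. The col genes run from the upper left, where 9 of 86 lie beyond both lines, to a cluster around 0.

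The members at the far end of this pattern were gathered after their values were seen, as those with a log2 ratio below -1 on LDM in Cy3 replicate 1 and above 0.5 on LDM in Cy3 replicate 3. They were 9 of 86 tested members (10.5%), where 1.08% of all genes met the same limits: col-20, col-60, col-106, col-120, col-122, col-124, col-129, col-181 and col-184. Just inside the limits lay col-120 (-1.43 and 0.69), and just outside lay col-158 (-1.20 and 0.45). Another 7 members with too few spots for a test met them as well: col-19, col-81, col-88, col-119, col-140, col-178 and col-179.

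col-19 is the best known of these, an adult collagen switched on at the last moult by the transcription factor LIN-29. Its control intensity was 420, 2584 and 494 where LDM was in Cy5 and 6893, 4927 and 1406 where it was in Cy3, and its LDM intensity was 283, 4558, 214, 551, 2852 and 2984. These intensities were not normalised between the dyes. In them the treated worms gave the weaker signal on 4 arrays, the stronger on LDM in Cy5 replicate 2 and LDM in Cy3 replicate 3. After normalisation, the ratios on the unmarked spots of col-19 were 0.43, -3.15, -0.32 and 1.84 (LDM in Cy5 replicate 2 and LDM in Cy3 replicates 1 to 3).

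Median log2 ratios of the 16 genes were -0.82, 0.28 and -0.68 on LDM in Cy5 replicates 1 to 3 and -2.30, -0.33 and 1.44 on LDM in Cy3 replicates 1 to 3. The values on LDM in Cy3 replicates 1 and 3 chose these genes and are given as a description. On LDM in Cy3 replicate 2, which the choice did not use, all 16 lay below control, where 47 of the 88 tested members did. The ratios of that array and of LDM in Cy3 replicate 1 were correlated over all genes tested (r = 0.41). Its values are therefore not independent of the choice. With LDM in Cy5, 8 of 8 measured genes lay below control on replicate 1, 4 of 16 on replicate 2 and 9 of 9 on replicate 3. Of the tested members, 57 of 83, 40 of 87 and 55 of 86 did. The 7 untested genes were not measured on replicates 1 and 3. Over the family, these replicates were correlated with LDM in Cy3 replicate 1 (r = 0.34 and 0.24) and inversely with LDM in Cy3 replicate 3 (-0.34 and -0.30). Their counts are thus not independent of the choice either. For the 9 tested genes the median control log2 intensity was 12.04, 13.06, 11.88, 12.63, 12.93 and 11.34 over the arrays in the same order, lowest on LDM in Cy3 replicate 3, and the median LDM intensity was 10.32 on LDM in Cy3 replicate 1, its lowest, and 12.69 on LDM in Cy3 replicate 3.

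Other genes with ratios of opposite sign on LDM in Cy3 replicates 1 and 3 were the vitellogenins and msp genes. The 5 tested vitellogenin genes, which encode yolk proteins made by the intestine of adults, had median log2 ratios of -1.31, -1.76, -2.37, -2.93, -0.72 and 2.44, and the 13 tested msp genes, major sperm proteins, had medians of -0.33, -0.15, -1.20, -1.04, 0.03 and 0.80. The rank product called 4 vitellogenins (vit-3 to vit-6) and 1 msp gene (msp-142) lower. For the 5 germline markers tested (glh-1, pgl-1, pie-1, mex-3 and cbd-1) the medians were 0.10, 0.80, -0.44, -0.09, 0.09 and 0.10, close to 0 on both of those arrays. The part of these markers, and of the age of the worms, in the collagen pattern was not tested.

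Another set of members differed in level between arrays in both treatments alike. The control log2 intensity of col-84 was 14.22, 14.09 and 14.37 with LDM in Cy5, and 7.96, 12.43 and 13.91 with LDM in Cy3, and in LDM it was 13.94, 13.72, 15.66, 7.21, 13.91 and 14.17. Both channels were lowest on LDM in Cy3 replicate 1, by far more than treated and control worms differed on any array. col-158 (control 14.58, 14.51, 13.14, 8.96, 12.59 and 14.16) and col-36 (control 15.54, 15.57, 15.12, 10.21, 14.53 and 15.50) did the same. The control levels of these genes spanned 6.41, 5.63 and 5.37 on the log2 scale.

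Their ratios differed between arrays as well. On LDM in Cy5 replicate 3, LDM in Cy3 replicate 1 and LDM in Cy3 replicate 2, they were 1.29, -0.75 and 1.48 for col-84, 1.82, -1.20 and 1.18 for col-158, and 0.69, -1.01 and 1.03 for col-36. The fitted ratios were 0.27 ± 0.32, 0.44 ± 0.34 and 0.14 ± 0.26 (limma, adjusted p of 0.843, 0.759 and 0.915), within the spread of the arrays. The spot of col-36 had saturated pixels on 5 arrays, up to 50% of them, so its ratios are not exact. In all, 10 of 88 members (11.4%) had a control level with an SD above 1 on the log2 scale, against 7.35% of all genes tested. Control was in Cy3 on 3 arrays and in Cy5 on the other 3, so control levels compared across orientations may also differ by dye. The control samples with the same number in the headers, on LDM in Cy5 replicate 3 and LDM in Cy3 replicate 1, differed by over 2 on the log2 scale for 6 of 84 members (7.14%) and 4.54% of all genes, col-84 (14.37 and 7.96) among them.

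The members with the largest ratios above 0 after col-37 and col-158 were col-142, col-84, col-41, col-42, col-103, col-117, col-160, col-159 and col-89, from 0.34 to 0.15, and none passed (adjusted p of 0.644 or more). col-41 and col-142 are known as targets of the DBL-1 signal, a TGF-β pathway that sets body size. The ratios of col-41 were 0.72, 0.59, 0.11, 0.36, 0.21 and -0.38, above control on 5 of 6 arrays, with a fitted ratio of 0.27 ± 0.15. Those of col-142 were 0.64, 0.90, -0.36, 0.01, 0.28 and 0.57, also above on 5 of 6, with a fitted ratio of 0.34 ± 0.19. Its neighbour col-141, a further known target, had 3 unmarked spots, with ratios of -0.43, 0.33 and -0.44.

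col-120, whose raised expression is known to lengthen life, had ratios of -0.71, -0.85, -0.68, -1.43, -0.50 and 0.69 and a fitted ratio of -0.58 ± 0.25 (adjusted p = 0.533). It was below control on 5 of 6 arrays. The collagens col-38, col-49 and col-63, known as collagens of the L4 stage and named after their values were seen, had fitted ratios of -0.12, -0.28 and -0.35. Each lay below control on LDM in Cy3 replicate 1 (-0.53, -0.56 and -0.71) and above it on replicate 3 (0.51, 0.46 and 0.60). These signs were not particular to them: col-42 (-0.29 and 0.30) and col-98 (-0.26 and 0.13) had them as well. Over the whole family the ratios of these arrays ran opposite (r = -0.82).

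By chromosome, the median fitted ratio was -0.28 for the 8 tested members on I, -0.13 for 15 on II, -0.08 for 8 on III, -0.21 for 26 on IV, 0.06 for 20 on V and -0.41 for 11 on X. All 8 on chromosome I lay below 0, while 7 of 20 on V did, beside 61 of 88 members and 55.1% of all genes over all chromosomes. The share of all genes on each chromosome was not computed. Several members on V, col-12, col-144 and col-155 among them, had saturated pixels, and the part of saturation in this was not tested. The 16 genes with opposed ratios on LDM in Cy3 replicates 1 and 3 were on IV (6), X (5), II (2), I, III and V. In 17 cases neighbouring genes in the table were both members on the array, and both were tested in 10 of them. The fitted ratios were alike for col-144 and col-145 (0.07 and 0.10) and for col-159 and col-160 (0.18 and 0.19), and of opposite sign for col-20 and col-73 (-0.35 and 0.03). Collagens of closely similar sequence may share signal on a probe, and the sequences of the probes were not examined.

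Of the 138 members, 10 had more than 1 probe. For col-13, col-144, col-145, col-159 and col-166 a further probe was bright and tested. The probes of col-166 gave ratios of -0.15, -0.04, -0.40, 0.20, 0.50 and -0.02 and of 0.42, 0.54, 0.39, -0.17, 0.14 and -0.03, which differ in sign on 4 arrays. For col-73, col-93, col-108 and col-117 the further probes were unmarked on 0 arrays, with control intensities between 158 and 313, and neither probe of col-99 was unmarked on any array. The former 4 thus rest on a single informative probe.

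The genes that make and arrange collagen were considered beside the family. Of 16 tested genes of collagen processing, such as the prolyl 4-hydroxylase subunits dpy-18 and phy-2, the disulphide isomerases pdi-1 to pdi-3 and the proteases bli-4 and dpy-31, 0 passed limma or the rank product, and 0 had an unadjusted p under 0.05 (median log2 ratio -0.06). The lowest was phy-2 (-0.39 ± 0.18) and the highest pdi-3 (0.25 ± 0.11), above control on 6 of 6 arrays.

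The 6 furrow collagens, which form the rings of the cuticle, had a median of -0.21 and ranged from -0.41 (dpy-7, unadjusted p under 0.05) to -0.06 (dpy-3). Among 12 tested collagens named for body shape, sqt-1 (-0.30 ± 0.13) and bli-2 (-0.41 ± 0.15) lay below control on 6 of 6 arrays without passing (limma, adjusted p = 0.531 and 0.441). dpy-17 had a ratio of 0.87 ± 0.29, above control on the 4 arrays where it was measured, and was called by rank product (percentage of false positives 0.0462), with 2.07 on LDM in Cy3 replicate 2 and 0.37 to 0.59 on the others. Its percentage against probes measured on as many arrays is not given here. The medians were -0.14 for this list and -0.10 for the 3 basement membrane collagens, which are not part of the cuticle.

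Of 10 tested cuticlins, insoluble non-collagen proteins of the cuticle, cut-3 was called higher by rank product (0.59 ± 0.55, on 4 arrays, 3 of them above control), and the median was -0.12. As for dpy-17, the percentage of cut-3 against probes measured on as many arrays is not given here. The 13 tested genes of moulting and the temporary matrix had a median of -0.22, and mlt-10, qua-1 and nas-37 had an unadjusted p under 0.05 (-0.57, -0.51 and -0.46), mlt-10 below control on 6 of 6 arrays. Of 11 tested regulators of cuticle genes, lin-29 stood lowest (-0.43 ± 0.18) and sma-9 highest (0.43 ± 0.23), with a median of 0.01, and 0 passed limma or the rank product. In all of these lists 0 genes passed limma after adjustment.

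Markers of other epidermal functions gave a median of -0.12 over 6 tested genes. Of these, dpy-11 (-0.42 ± 0.14) and che-14 (-0.45 ± 0.18) lay below control on 6 of 6 arrays, where 3.25% of all genes did. The others were mixed: lin-26 (0.17 ± 0.16) lay above control on 5 of 6 arrays, sax-7 (-0.06 ± 0.15) on 4, elt-3 (-0.05 ± 0.15) on 3 and vha-5 (-0.18 ± 0.15) on 2. Medians were -0.08 for 6 muscle genes, 0.09 for 7 intestinal genes and 0.08 for 5 neuronal genes. Single genes of these lists stood out as well. A muscle gene (-0.15 ± 0.11) lay below control on 6 of 6 arrays and another (0.19 ± 0.11) above on 6 of 6. A neuronal gene had a ratio of 0.63 ± 0.12, above control on 5 of 6 arrays, and did not pass (limma, adjusted p = 0.134). The median was -1.09 for the vitellogenins, -0.30 for the msp genes and 0.07 for the germline markers, and cutl-1 was the only cuticlin with a ratio below 0 at an unadjusted p under 0.05 (-0.63 ± 0.20).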

How the data were processed

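The authors hybridised labelled cDNA to 60-mer arrays and deposited spot intensity and local background for either dye, unnormalised, with the percent of saturated pixels. Their normalised table, as deposited, gives log2 LDM/control values from loess and Aquantile steps in limma, whose version is not given in the sources used here.

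Here mean foreground and median background entered limma 3.58.1 in R 4.3.3, with normexp (offset 50), loess over unmarked gene spots and Aquantile scaling. Marked spots were left out. Where a gene had several tested probes, the one brightest on average was used. The model held LDM and dye effects, and p-values were adjusted over all genes tested (Benjamini-Hochberg, threshold 0.05). The rank product was rewritten after the methods with 100 permutations, and a gene passed where any probe did. Both were run on simulated data with independent noise of the same spread on every array. The real arrays differed in spread and were correlated, so those runs do not show how the tests behave here. The number of arrays limits the precision, and p-values measure only the spread between these samples.

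Members and lists were chosen with earlier results of these data known. Genes are named where called, alike on 6 of 6 arrays, among the 10 highest or lowest ratios of members measured on all 6 arrays, the 6 brightest tested members or the 5 highest or lowest SDs, or of known role; others were chosen after their values were seen. col-7 was not among the probes matched. The alternatives covered background, normalisation, spot filters, model terms, array weights and each array left out. Leaving out saturated spots, averaging arrays of one control number and a rank product null by number of arrays were chosen after seeing the data.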

Additional observations from a re-analysis of the deposited data

Results flagged for a closer look

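The log2 ratios of each gene named here with at least 4 measured arrays, and the family median, were compared between arrays. Of these 71 results, 10 had an array far from the others. Many of the genes were named from these same ratios, and all share the same arrays. The count therefore cannot be set against a chance rate. The ratio of col-13 was -0.18 on LDM in Cy3 replicate 1, where the nearest other array gave 0.00. That of col-45 was -0.59 on LDM in Cy5 replicate 1 (nearest -0.27), and that of col-147 was 0.33 on LDM in Cy5 replicate 2 (nearest 0.03).

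LDM in Cy5 replicate 2 also stood apart for col-172 (-2.49, nearest -0.35) and col-174 (-1.41, nearest -0.39), whose fitted ratios of -0.78 and -0.43 rest largely on it. For col-63 the ratio on LDM in Cy3 replicate 3 was 0.60 (nearest -0.35). For col-184 it was -2.65 on LDM in Cy3 replicate 1 (nearest -0.36), a value that also put the gene among those gathered for opposed ratios.

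Outside the family, dpy-17 had 2.07 on LDM in Cy3 replicate 2 (nearest 0.59), so that its fitted ratio of 0.87 rests largely on 1 of its 4 arrays. On LDM in Cy3 replicate 3, vit-3 had 2.79 (nearest -0.80) and vit-5 had 2.44 (nearest -0.82).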

How the results depend on the processing

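limma called 0 col genes higher and 0 lower after adjustment under each alternative except array weights, which gave 5 and 12, with 6 and 28 at an unadjusted p under 0.05. Those unadjusted counts, 1 higher and 11 lower as reported, were 7 lower with print-tip loess, where 4.21% of all genes were lower. With median centring 8 were higher and with marked spots kept 3, where 11.6% and 10.4% of all genes passed in either direction. A term for the image analysis date, which sets LDM in Cy3 replicate 1 apart from the other 5 arrays, gave 2 and 4 (7.54% of all genes). With the arrays of the same control number averaged they were 3 and 6 (11% of all genes). With the replicate number as a block, 0 were called, 1 and 8 passed unadjusted (8.51% of all genes) and the median was -0.13. Same-numbered arrays of opposite dye deviated together with correlations of -0.0266, 0.409 and 0.230, and not every array correlated best with its own number, so the numbers were not taken as pairs. The rank product called col-37 under the other alternatives run for it that kept all arrays, but 0 higher and 2 lower (col-181 and col-43) with marked spots kept, and 1 lower (col-20) with print-tip loess. The cause of these changes was not tested.

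Leaving out each array in turn gave 0 to 4 higher and 4 to 16 lower at an unadjusted p under 0.05. It was 4 lower without LDM in Cy3 replicate 1 or 2, and 16 lower without LDM in Cy3 replicate 3. These runs gave 0 limma calls and 0 to 1 rank product calls in either direction (col-181 lower without LDM in Cy5 replicate 2 or LDM in Cy3 replicate 3). The family median ran from -0.158 to -0.0883, and the correlation of LDM in Cy3 replicates 1 and 3 from -0.844 to -0.821. The median kept its sign under every alternative run. With 1 or 3 background SD as the limit, 110 or 94 members were above background in control on 6 arrays, where 100 were with 2. The signal limits the result: 50 of 138 members were not tested because of marked spots, and 24 tested members had saturated pixels.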

Other observations

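Among the 50 members without a test, 15 had unmarked spots on 3 or more arrays. With marked spots kept, which lets all 138 be compared, the median log2 ratio of the family was -0.11 and 63.8% of its members lay below 0, against 54.6% of all genes. The spot of col-43, called lower by the rank product in that setting only, was unmarked on a single array, LDM in Cy3 replicate 2, where its intensity was 1173 in control and 230 in LDM. On the other 5 arrays its control intensity was 176 to 493.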
